A study of Mus musculus with 24 samples.

Results

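Hand1, Hand2, Twist1, Twist2, Tbx1, Tbx2, Tbx3, Tbx5, Tbx18 and Tbx20 encode transcription factors that pattern the pharyngeal arches, the outflow tract and the heart. These 10 genes were picked by symbol from the 54752 genes of the deposited count table, and all of them were among the 16463 genes that held enough counts to be tested. Their RNA was measured by bulk RNA-Seq in the ductus arteriosus (DA), the fetal vessel that joins the pulmonary artery to the aorta and shuts after birth, and in the ascending aorta of mouse embryos at embryonic day 18.5 on a C57/Black6 background. Prdm6-deficient embryos (Wnt1Cre;PRDM6f/f) carried a Cre transgene under the Wnt1 promoter, which is active in the neural crest, and floxed Prdm6 on both alleles. Vessel cells that do not come from the Wnt1 lineage therefore kept the gene. Control libraries came from embryos with 1 floxed allele and no Cre (PRDM6wt/f, 5 DA and 5 aorta libraries), from a wild-type embryo (PRDM6wt/wt, 1 DA library) and from an embryo with Cre and wild-type Prdm6 (Wnt1Cre;PRDM6wt/wt, 1 DA and 1 aorta library). In all, 7 control DA, 5 Prdm6-deficient DA, 6 control aorta and 5 Prdm6-deficient aorta libraries were analysed, while a further labelled library, replicate 4 of Prdm6-deficient DA, was not analysed here. In that group, replicates 1 and 2 each pooled 2 embryos. Total counts ran from 15163974 to 22610547 per library.

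Hand and Twist proteins belong to the basic helix-loop-helix family. They bind E-boxes as dimers, usually with a widely expressed E protein such as Tcf3, Tcf4 or Tcf12, while Id proteins, which lack the DNA-binding basic region, hold E proteins away from DNA. In the cardiac neural crest and pharyngeal mesenchyme, Hand2 acts downstream of endothelin and Bmp signals, and Twist1 is needed for normal mesenchyme of the arches and endocardial cushions. T-box proteins share a DNA-binding domain first described in Brachyury: Tbx2 and Tbx3 are mainly repressors that act downstream of Bmp signals, Tbx1 patterns the pharyngeal arches and their arteries, Tbx5 and Tbx20 act in the myocardium, and Tbx18 marks the epicardium and progenitors of mural cells.

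The members come as close relatives, so the coding stretch over which each pair is most alike is shown for 3 pairs, with capitals at the bases that differ within the pair (GENCODE transcripts, GRCm38). The pairs are Twist1 (chr12:33958298-33958417, plus strand) with Twist2 (chr1:91801809-91801928, plus strand), Hand1 (chr11:57831345-57831464, minus strand) with Hand2 (chr8:57322244-57322363, plus strand), and Tbx2 (chromosome 11, plus strand) with Tbx3 (chromosome 5, plus strand), whose stretches each span more than 1 exon.
Twist1: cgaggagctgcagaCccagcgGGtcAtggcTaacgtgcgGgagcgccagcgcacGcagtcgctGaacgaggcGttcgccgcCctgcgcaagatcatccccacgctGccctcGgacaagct
Twist2: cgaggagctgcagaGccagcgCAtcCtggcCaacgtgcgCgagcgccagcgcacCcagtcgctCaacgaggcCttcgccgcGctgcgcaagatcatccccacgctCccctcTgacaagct
Hand1: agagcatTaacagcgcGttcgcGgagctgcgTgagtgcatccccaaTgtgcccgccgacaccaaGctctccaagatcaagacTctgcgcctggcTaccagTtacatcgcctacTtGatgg
Hand2: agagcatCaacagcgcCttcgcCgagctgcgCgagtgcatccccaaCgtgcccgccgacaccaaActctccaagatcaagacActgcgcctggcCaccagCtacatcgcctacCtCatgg
Tbx2: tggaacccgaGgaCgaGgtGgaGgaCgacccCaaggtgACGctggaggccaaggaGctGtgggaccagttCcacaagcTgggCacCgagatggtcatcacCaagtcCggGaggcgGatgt
Tbx3: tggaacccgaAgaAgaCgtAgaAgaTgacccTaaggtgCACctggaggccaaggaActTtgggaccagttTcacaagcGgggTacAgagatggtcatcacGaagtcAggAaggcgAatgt
Over these 120 bases, 12 differed between Twist1 and Twist2, 11 between Hand1 and Hand2 and 20 between Tbx2 and Tbx3. The longest run of bases that any 2 members' transcripts shared without a mismatch was 23 bases, between Twist1 and Twist2. The deposited counts of Hand1, Twist1, Tbx1, Tbx2, Tbx3, Tbx5 and Tbx20 were whole numbers in all 23 libraries, to within 1e-06. Those of Hand2 (17 of 23 libraries), Twist2 (21 libraries) and Tbx18 (23 libraries) were not always whole, and each of these 3 genes overlaps an antisense gene. Tbx3 overlaps one too (Tbx3os1, 697 bases, with a largest overlap between 2 exons of 115 bases), and its counts were whole throughout.

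The promoter, taken as 250 bases before to 50 after the annotated start, is shown for Hand2 and Twist1, which were both called in at least 1 comparison (RefSeq, GRCm38.p6). It was listed for 6 of the 10 genes. Capitals mark E-boxes, CANNTG, the element that the Hand and Twist proteins themselves bind.
Hand2 promoter, chr8:57320733-57321032, plus strand: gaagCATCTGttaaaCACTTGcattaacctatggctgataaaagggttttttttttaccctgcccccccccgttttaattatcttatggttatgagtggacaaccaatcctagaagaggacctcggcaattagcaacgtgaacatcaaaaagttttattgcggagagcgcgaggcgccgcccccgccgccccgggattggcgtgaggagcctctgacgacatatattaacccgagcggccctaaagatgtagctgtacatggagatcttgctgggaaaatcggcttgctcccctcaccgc
Twist1 promoter, chr12:33957421-33957720, plus strand: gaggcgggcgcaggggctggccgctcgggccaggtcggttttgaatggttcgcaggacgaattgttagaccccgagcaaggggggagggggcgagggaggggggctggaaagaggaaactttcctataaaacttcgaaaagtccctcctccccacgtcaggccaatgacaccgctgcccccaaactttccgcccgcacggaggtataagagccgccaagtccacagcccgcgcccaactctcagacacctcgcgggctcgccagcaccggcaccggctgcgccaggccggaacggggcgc
The Hand2 window held 2 E-boxes and the Twist1 window held 0, where 72.3% of 32851 promoters of the same length held at least 1. Searched on both strands, neither window held the T-box site AGGTGTGA (1.28% of promoters), the CArG box that serum response factor binds (1.63%), the MCAT element GGAATG (14.7%) or the AP-1 site TGANTCA (7.81%). These matches are a description of letters and not of binding.

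The label of the genotype was checked on the targeted gene. Prdm6 counts cover all exons together, floxed or not. The level was 78.1, 70.8, 77.7, 78.5 and 58.6 CPM (counts relative to the total of the library, scaled between libraries by the TMM method) in Prdm6-deficient DA and lay between 84.9 and 128 CPM in control DA. In Prdm6-deficient aorta it was 69.6, 70.05, 68.5, 81.2 and 61.9 CPM, against 95.6 to 135 CPM in control aorta. Prdm6 was therefore lower in every Prdm6-deficient library of either vessel. The 10 smooth muscle markers were present in every group. Of these, 8 were called lower in Prdm6-deficient DA, where 2.82% of all tested genes were called lower. The summed level of the 10 markers was 14203 to 25076 CPM in control DA and 10111 to 12274 CPM in Prdm6-deficient DA. Control DA replicate 1 stood apart with 1792 CPM of summed cardiomyocyte markers, control DA replicate 7 with 242 CPM of summed Schwann cell markers, and Prdm6-deficient DA replicate 7 with 703 CPM of cardiomyocyte markers, which was 10.7, 5.80 and 3.16 times the median of the group, respectively. Markers of other cells also moved with genotype. Summed melanocyte markers were at 45.9 to 242 CPM in control DA and 4.12 to 13.2 CPM in Prdm6-deficient DA, where 4 of 8 tested were called lower and Tyr and Slc45a2 were at 0 in all libraries. Summed lung and airway markers were at 73.6 to 116 CPM and 3.34 to 23.6 CPM, with 1 of 4 tested called lower. Of the 12 listed, only 5 had a count in control DA. Nkx2-1, Sftpc, Sftpb, Foxa1, Foxa2, Epcam and Scgb1a1 were at 0 in all libraries of both groups. In the aorta 12 of 12 endothelial markers were higher by sign and 3 were called higher, as were 1.63% of all tested genes. The median log2 fold change of these markers was 0.51, against -0.0010 over all tested genes. Their median sum was 1113 CPM in controls and 1616 CPM in Prdm6-deficient libraries. Schwann cell marker sums had a median of 41.8 CPM in control and 91.8 CPM in Prdm6-deficient DA. Of 9 such markers 1 was called higher in the DA, as were 2.61% of all tested genes. Skeletal muscle marker sums were 50.4 to 242 CPM and 19.3 to 50.0 CPM there, with 1 of 6 called lower. Thymus and leukocyte marker sums were 100 to 192 CPM in control and 59.6 to 88.3 CPM in Prdm6-deficient aorta, with 0 called. Of 6 brown fat markers tested, 3 were called lower in the DA, while the sums overlapped. The part of these cells in the members' changes was not tested. The embryos carried numbers from 2 separate runs. In the DA, 3 Prdm6-deficient and 2 control libraries belonged to the first run, and 2 Prdm6-deficient and 5 control libraries to the second. The first run also held 2 Prdm6-deficient aorta libraries and 1 control aorta library.

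Tbx2 and Twist1 rose in both vessels of Prdm6-deficient embryos, and Hand2 rose in the DA. Of the 10 genes, 3 were called in the DA, all of them higher in Prdm6-deficient vessels (Tbx2, Hand2 and Twist1), where called means an edgeR adjusted p below 0.01 together with a log2 fold change larger than 0.5 in size. The share of all tested genes called in the DA was 5.43%, and 2.61% were called higher. In the aorta 2 of the 10 genes were called, again both higher (Tbx2 and Twist1), against 2.45% of all tested genes, of which 1.63% were higher. Between the vessels of control embryos 1 of 10 genes was called, Hand2, which was lower in the DA, where 5.36% of all genes were called and 2.19% were called lower. The DA and vessel comparisons share the control DA libraries. The median log2 fold change of the 10 genes with Prdm6 deficiency was 0.62 in the DA and -0.04 in the aorta, and over all tested genes it was 0.01 and -0.0010, respectively. Since the 10 genes were chosen with earlier results of these data known, these shares and medians are no test of the set. In bulk tissue, more cells that express a gene and more RNA per cell cannot be told apart.

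**Figure D1:**
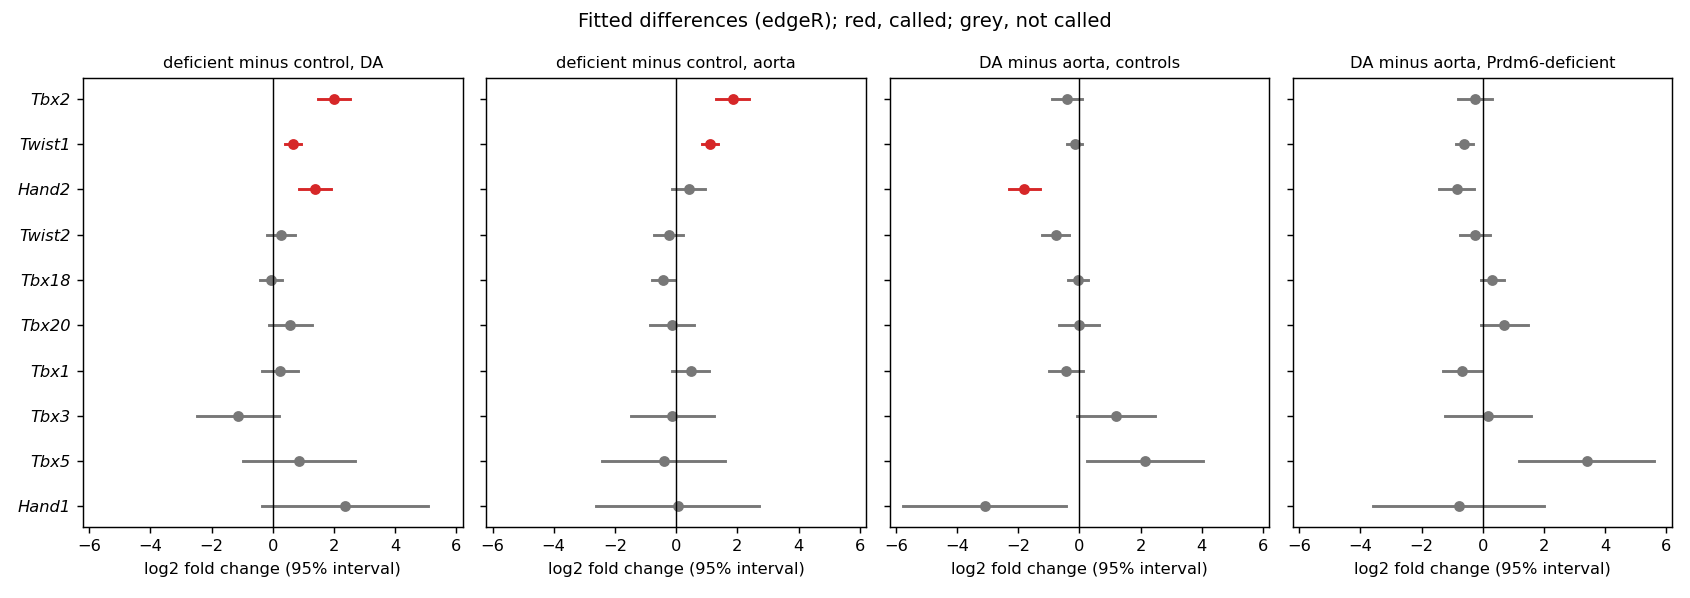
Log2 fold changes of the 10 genes with 95% confidence intervals from edgeR in 4 comparisons (x axis, log2 scale), with called genes in red and all others in grey. Tbx2 and Twist1 lie to the right of 0 in both Prdm6 comparisons, Hand2 lies at 1.37 in the DA and at -1.80 between control vessels, and Hand1, Tbx3 and Tbx5 have the widest intervals.

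Tbx2, a repressor of chamber-type differentiation in the heart, showed the largest called change among the 10 genes. It lies at chr11:85832551-85841948 on the plus strand (ENSMUSG00000000093.6). In control DA its level ran from 4.45 to 20.8 CPM with a median of 14.5 CPM. In Prdm6-deficient DA it was 61.8, 60.4, 60.2, 52.8 and 30.2 CPM in replicates 1, 2, 5, 6 and 7. Every Prdm6-deficient DA library lay above every control DA library, and replicate 7 lay well below the other 4. This was a log2 fold change of 2.0 (standard error 0.25, 95% confidence interval 1.47 to 2.52, edgeR adjusted p = 2.57e-06), which is 4.0-fold. Groups without overlap and higher in Prdm6-deficient DA were found for 2.73% of all genes.

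In control aorta Tbx2 ran from 14.1 to 22.6 CPM with a median of 17.0 CPM. It was 67.3, 63.2, 76.3, 58.2 and 53.0 CPM in the 5 Prdm6-deficient aorta libraries. The groups again did not overlap, as for 3.92% of all genes that were higher, and the log2 fold change was 1.85 (standard error 0.26, edgeR adjusted p = 3.05e-05). The effects in the 2 vessels differed by 0.15 on the log2 scale (95% interval -0.60 to 0.90, edgeR adjusted p = 0.916 for the interaction), which was not called. Between vessels Tbx2 was not called in controls (log2 fold change -0.41, edgeR adjusted p = 0.373) nor in Prdm6-deficient embryos (-0.26, edgeR adjusted p = 0.852). Within the first run of embryo numbers the DA effect was 2.22 (edgeR adjusted p = 0.0206, not called) and within the second it was 1.73 (edgeR adjusted p = 0.0015). Within the second run the aorta effect was 1.88 (edgeR adjusted p = 2.73e-04), and the first run, with 1 control aorta, gave no value. The gene nearest to it, 2610027K06Rik, lies 328 bases upstream on the opposite strand and had a log2 fold change of 1.78 in the DA (standard error 0.87, edgeR adjusted p = 0.216). Bcas3, which ends 6493 bases upstream on the same strand, had a log2 fold change of 0.18 (edgeR adjusted p = 0.561).

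Twist1, a regulator of mesenchymal identity and of neural crest derivatives, rose in both vessels. It lies at chr12:33957671-33959829 on the plus strand (ENSMUSG00000035799.6). Control DA libraries held 27.4 to 45.8 CPM (median 29.7 CPM). Prdm6-deficient DA libraries held 62.5, 46.3, 61.8, 52.6 and 42.0 CPM. Only replicate 7 of these lay inside the control range, below control DA replicate 2, the library with Cre and wild-type Prdm6. This amounted to a log2 fold change of 0.66 (standard error 0.12, 95% interval 0.40 to 0.92, edgeR adjusted p = 4.84e-04). Without the control libraries with Cre it was 0.75 (edgeR adjusted p = 7.74e-05).

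In the aorta Twist1 ran from 29.8 to 46.5 CPM in controls (median 36.2 CPM) and was 81.4, 77.7, 76.9, 87.3 and 79.3 CPM in Prdm6-deficient libraries. The groups did not overlap, as for 3.92% of all genes that were higher. It rose by a log2 fold change of 1.11 (standard error 0.13, edgeR adjusted p = 1.38e-06), or 2.16-fold. The effect was 0.45 smaller on the log2 scale in the DA than in the aorta (interaction -0.45, unadjusted p = 0.0185, edgeR adjusted p = 0.178), which did not pass. Between the vessels of controls Twist1 was not called (-0.15, edgeR adjusted p = 0.552). Between the vessels of Prdm6-deficient embryos every DA library lay below every aorta library, as for 1.84% of all genes, and the log2 fold change was -0.60 (standard error 0.14, edgeR adjusted p = 0.0242). In the DA the effect was 0.64 within the first run of embryo numbers (edgeR adjusted p = 0.136) and 0.47 within the second (edgeR adjusted p = 0.0996), so it passed in neither run alone. The effect in the aorta was 1.09 within the second run (edgeR adjusted p = 9.22e-05).

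Hand2, a factor of the cardiac neural crest and the right ventricle, was the member that edgeR called between the control vessels. It lies at chr8:57320983-57324633 on the plus strand (ENSMUSG00000038193.4). Its level ran from 5.39 to 23.2 CPM in control DA (median 12.3 CPM) and from 24.5 to 54.1 CPM in control aorta (median 44.0 CPM). The DA was lower in every library, as for 2.36% of all genes, and the log2 fold change between the control vessels was -1.80 (standard error 0.25, 95% interval -2.32 to -1.29, edgeR adjusted p = 8.42e-06). In Prdm6-deficient DA it was 27.1, 39.2, 22.7, 24.7 and 41.7 CPM in replicates 1, 2, 5, 6 and 7. Of these only replicate 5 lay below the highest control DA library, again the one with Cre. The log2 fold change with Prdm6 deficiency in the DA was 1.37 (standard error 0.26, 95% interval 0.84 to 1.90, edgeR adjusted p = 4.65e-04), or 2.59-fold.

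In Prdm6-deficient aorta Hand2 was 50.6, 72.3, 49.6, 63.8 and 43.0 CPM, which overlapped the controls, with a log2 fold change of 0.41 (standard error 0.26, 95% interval -0.12 to 0.95, edgeR adjusted p = 0.579). The effect in the DA exceeded that in the aorta by 0.96 on the log2 scale (95% interval 0.20 to 1.72, unadjusted p = 0.0155), which did not pass over all genes (edgeR adjusted p = 0.162). The order of the 4 groups ran upward from control DA to Prdm6-deficient DA, control aorta and Prdm6-deficient aorta. Prdm6-deficient DA and control aorta overlapped and differed by -0.43 (95% interval -0.98 to 0.11, edgeR adjusted p = 0.481), a comparison that was added after this order was seen. Prdm6-deficient DA lay below Prdm6-deficient aorta in every library, as for 1.84% of all genes. The log2 fold change was -0.85 (standard error 0.28, edgeR adjusted p = 0.193), which was not called.

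The Hand2 value in the DA depended on which libraries were compared. Within the first run of embryo numbers the 3 Prdm6-deficient libraries held 22.7 to 27.1 CPM and the 2 controls 5.39 and 23.2 CPM, a log2 fold change of 0.79 (edgeR adjusted p = 0.45). Within the second run the 2 Prdm6-deficient libraries held 39.2 and 41.7 CPM and the 5 controls 6.97 to 14.8 CPM, a log2 fold change of 1.87 (edgeR adjusted p = 4.98e-04). Without the 3 libraries that had high markers of other cells it was 1.15 (edgeR adjusted p = 0.0131, with fewer libraries in the fit), so the call was lost. Without the control libraries with Cre it was 1.62 (edgeR adjusted p = 3.34e-05). Hand2 is also expressed by sympathetic neurons. The summed level of 15 sympathetic neuron markers was 35.5 to 58.1 CPM in Prdm6-deficient DA against 15.7 to 41.1 CPM in control DA, and 55.9 to 101 CPM against 32.1 to 51.5 CPM in the aorta. Of these markers 14 had a count in the DA, and Slc6a2, the noradrenaline transporter, was at 0 in all DA libraries. In the aorta Dbh was at 0 in all control libraries, and Phox2a and Slc6a2 in all Prdm6-deficient ones. Only 9 of the 15 markers were tested, and 1 was called higher in each vessel. Over all tested genes the shares called higher were 2.61% in the DA and 1.63% in the aorta. In the DA 8 of the 9 rose and 1 fell, and their median change was 0.71 on the log2 scale. In the aorta 6 rose and 3 fell, and the median was 0.06, so the higher sum there was not shared by all tested markers. The part of such cells in the Hand2 result was not tested.

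**Figure D2:**
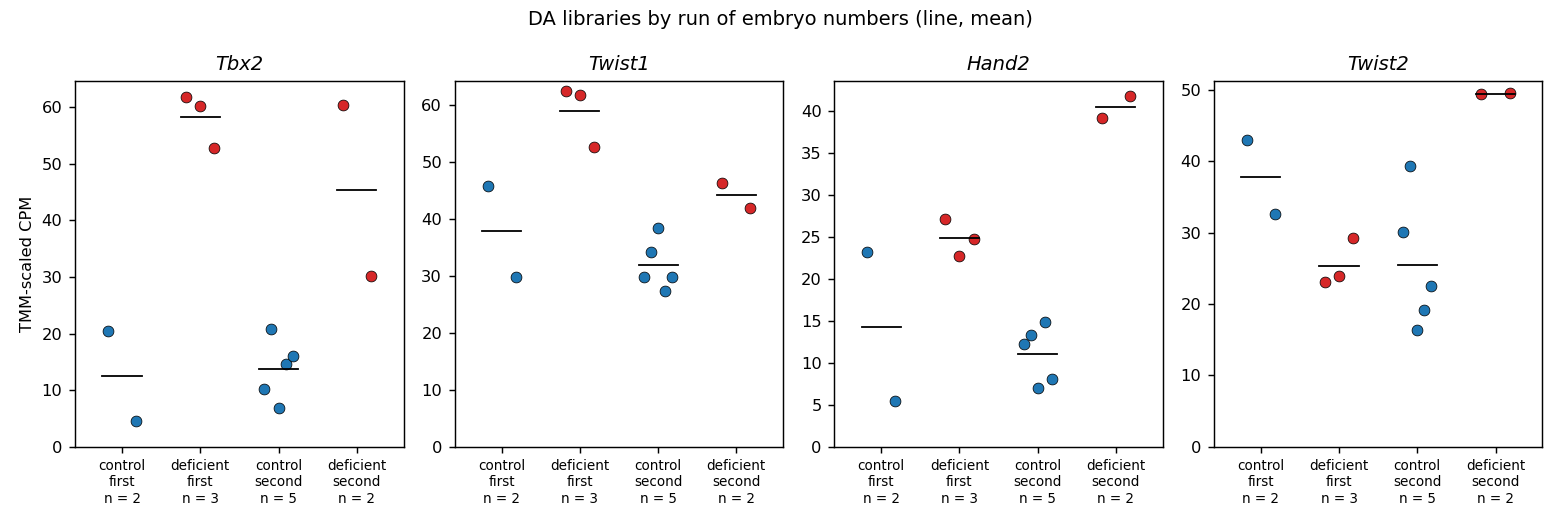
TMM-scaled CPM of Tbx2, Twist1, Hand2 and Twist2 in each DA library (y axis), split by genotype and by the run of embryo numbers, with lines at the means. Tbx2 and Twist1 are higher in Prdm6-deficient DA in both runs, Hand2 separates completely only in the second run, and Twist2 is lower in the first run and higher in the second.

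Hand2 shares its locus with Hand2os1, a noncoding gene on the opposite strand that spans chr8:57281117-57324233, runs across the Hand2 promoter shown above and overlaps 3251 bases of Hand2. The largest overlap between an exon of one and an exon of the other is 246 bases. Hand2os1 was lower still in control DA, at 0.193 to 3.39 CPM, than in control aorta, at 9.48 to 14.997 CPM, and the log2 fold change between control vessels was -2.95 (standard error 0.44, edgeR adjusted p = 2.05e-05). In Prdm6-deficient DA it was 6.36, 11.1, 2.89, 2.30 and 5.59 CPM. The log2 fold change with Prdm6 deficiency was 1.87 in the DA (standard error 0.44, edgeR adjusted p = 0.00475), which was called, and 0.47 in the aorta (edgeR adjusted p = 0.788), which was not. The antisense gene thus moved in the direction of Hand2 in each comparison called for either. The counting was not stated to use the strand, so reads from the overlapping stretch cannot be assigned with certainty. Farther downstream, 5033428I22Rik, 7485 bases away on the same strand, had a log2 fold change of 1.71 in the DA (edgeR adjusted p = 0.0376) and -1.45 between control vessels (edgeR adjusted p = 0.0758). Gm34030, 7059 bases away on the opposite strand, was 1.43 (edgeR adjusted p = 0.409) and -2.50 (edgeR adjusted p = 0.0931) in the same comparisons.

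**Figure D3:**
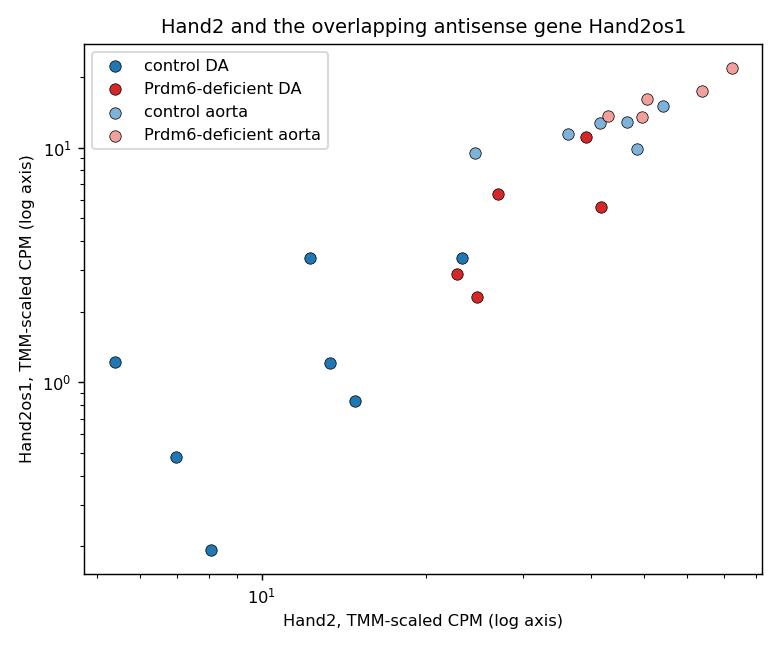
Hand2 (x axis) against Hand2os1 (y axis) in each of the 23 libraries, both in TMM-scaled CPM on log axes and coloured by group. Hand2os1 is at no more than 3.39 CPM in control DA and at 9.48 CPM or more in all aorta libraries, and Prdm6-deficient DA overlaps both.

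Twist2, the relative of Twist1 that acts in dermal and other connective tissue mesenchyme, did not follow it. It lies at chr1:91801461-91848028 on the plus strand (ENSMUSG00000007805.4). Control DA libraries held 16.3 to 43.0 CPM (median 30.1 CPM) and control aorta libraries 39.5 to 57.3 CPM (median 51.6 CPM), with a log2 fold change of -0.77 between them (standard error 0.21, edgeR adjusted p = 0.0155), just outside the threshold. With embryos as blocks, since some gave both vessels, it was -0.87 (edgeR adjusted p = 0.00454), which was called. In Prdm6-deficient DA it was 23.001, 49.4, 23.9, 29.2 and 49.6 CPM, and the 2 high libraries were those of the second run of embryo numbers. The Prdm6 effect in the DA was 0.27 over all libraries (edgeR adjusted p = 0.52), -0.58 within the first run (edgeR adjusted p = 0.282) and 0.96 within the second (edgeR adjusted p = 0.0245), none of which was called. Prdm6-deficient aorta held 42.4, 38.6, 35.7, 58.2 and 33.8 CPM (log2 fold change -0.24, edgeR adjusted p = 0.794). Gm29100 is an antisense gene that covers the Twist2 start, with a largest overlap between 2 exons of 1468 bases. It ran from 0 to 3.69 CPM in control DA and from 0 to 2.24 CPM in Prdm6-deficient DA. Gm29100 was not called in either vessel (log2 fold change -0.53, edgeR adjusted p = 0.779 in the DA, and -0.11, edgeR adjusted p = 0.995 in the aorta).

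**Figure D4:**
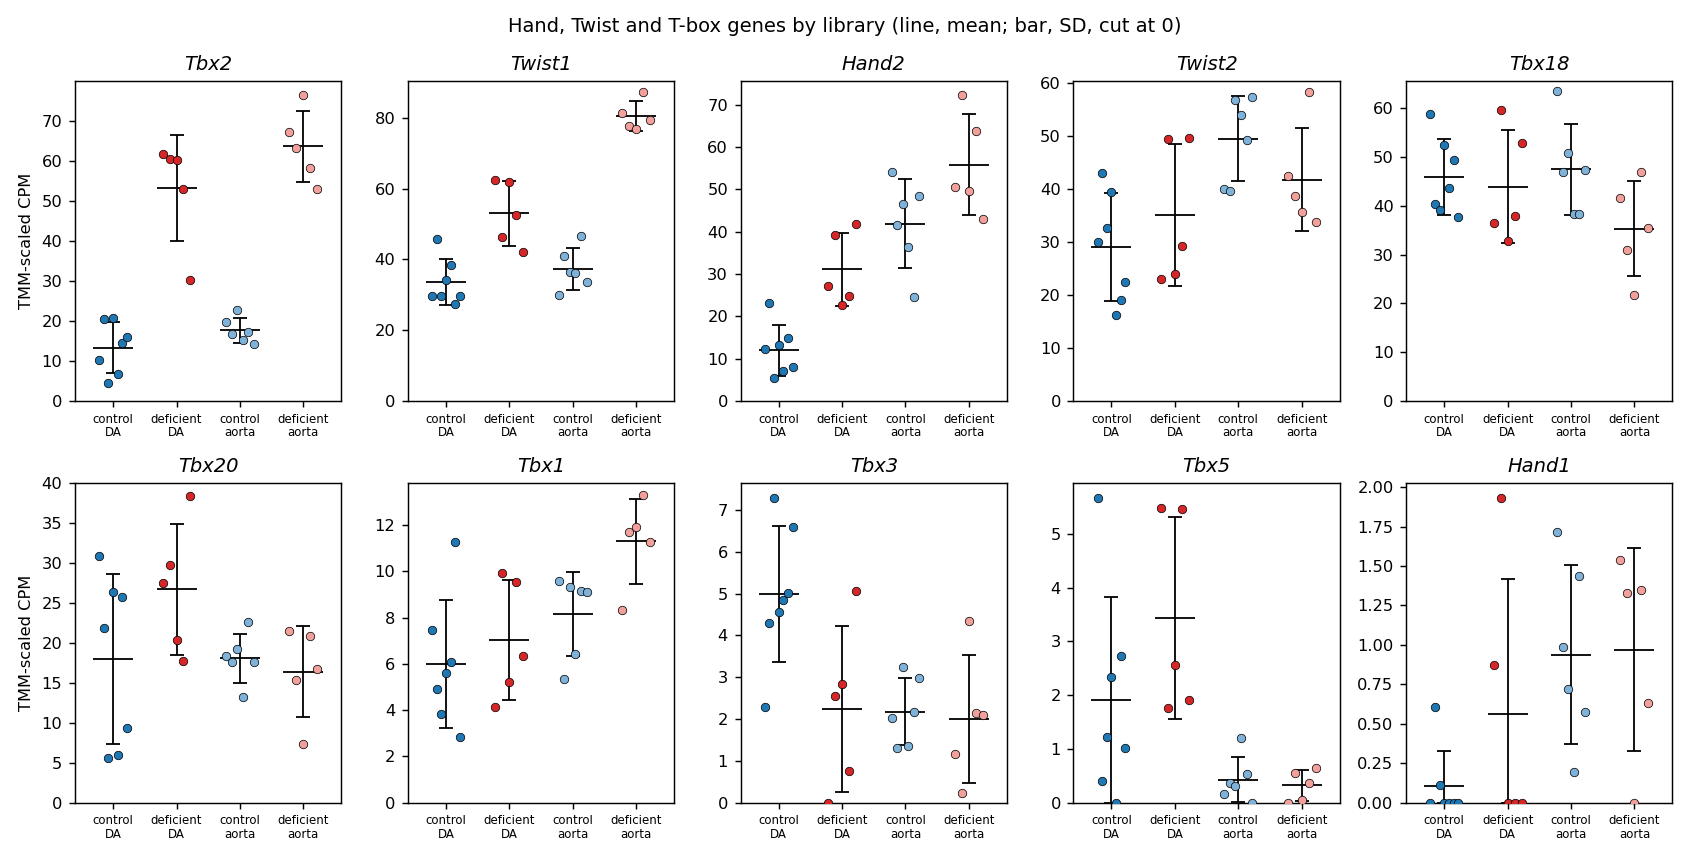
TMM-scaled CPM of the 10 genes in each of the 23 libraries (y axis, linear, from 0) in the 4 groups, with the group mean and SD. Tbx2 separates by genotype in both vessels and Twist1 in the aorta, Hand2 separates the control vessels, and Hand1, Tbx3 and Tbx5 stay at 7.28 CPM or less in every library.

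Tbx18, Tbx20 and Tbx1 were measured well in every library and were called in no comparison. Tbx18 (chr9:87702800-87731260, minus strand), a marker of epicardium and mural progenitors, held 37.8 to 58.8 CPM in control DA and 38.3 to 63.5 CPM in control aorta. In Prdm6-deficient DA it was 36.6, 59.7, 32.8, 37.9 and 52.9 CPM (log2 fold change -0.06, 95% interval -0.42 to 0.29, edgeR adjusted p = 0.886). In Prdm6-deficient aorta it was 41.7, 31.0, 21.7, 46.9 and 35.5 CPM (log2 fold change -0.43, 95% interval -0.80 to -0.06, edgeR adjusted p = 0.24). All 4 groups overlapped. D030062O11Rik, an antisense gene with 726 bases of exon overlap, was not called in either vessel (edgeR adjusted p = 0.477 in the DA and 0.997 in the aorta).

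Tbx20 (chr9:24718138-24774303, minus strand), a factor of myocardium and endocardium, spread widely within control DA. The 7 libraries ran from 5.56 to 30.8 CPM with a median of 21.8 CPM, while control aorta stayed between 13.2 and 22.6 CPM. Prdm6-deficient DA held 27.4, 29.8, 20.3, 17.7 and 38.4 CPM, and Prdm6-deficient aorta 21.5, 15.4, 7.30, 20.9 and 16.7 CPM. Its log2 fold change was 0.58 in the DA (95% interval -0.12 to 1.27, edgeR adjusted p = 0.325) and -0.14 in the aorta (edgeR adjusted p = 0.963). Summed mesothelial and epicardial markers varied as widely in the DA, from 26.3 to 499 CPM in controls and from 33.4 to 326 CPM in Prdm6-deficient vessels, with none of the 10 markers at 0 in all libraries of a group. Control DA replicates 1 and 4 held the highest marker sums, 447 and 499 CPM, and the highest Tbx20, 30.8 and 26.3 CPM. Replicate 5 held the lowest marker sum, 26.3 CPM, and 6.01 CPM of Tbx20, but replicate 3, with 190 CPM of markers, held the lowest Tbx20, 5.56 CPM. The part of mesothelial and heart cells in the Tbx20 level was not tested.

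Tbx1 (chr16:18580979-18590671, minus strand), the T-box gene of the pharyngeal arches, held 2.84 to 11.3 CPM in control DA and 5.36 to 9.59 CPM in control aorta. Prdm6-deficient DA held 4.11, 9.94, 5.22, 9.54 and 6.33 CPM, within the control range throughout (log2 fold change 0.23, edgeR adjusted p = 0.699). Prdm6-deficient aorta held 8.32, 11.7, 11.9, 13.3 and 11.3 CPM, of which 4 lay above every control (log2 fold change 0.47, 95% interval -0.12 to 1.06, edgeR adjusted p = 0.557).

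Tbx3, Tbx5 and Hand1 were the least abundant members, at 7.28 CPM or less in every library, where 3 counts corresponded to 0.133 to 0.198 CPM. Tbx3 (chr5:119670669-119684724, plus strand), the closest relative of Tbx2, did not rise beside it. It held 2.28 to 7.28 CPM in control DA and 0, 2.56, 2.84, 0.747 and 5.05 CPM in Prdm6-deficient DA (log2 fold change -1.14, 95% interval -2.48 to 0.19, edgeR adjusted p = 0.307). In the aorta it held 1.30 to 3.23 CPM in controls and 1.17, 0.229, 4.34, 2.14 and 2.10 CPM in Prdm6-deficient libraries (edgeR adjusted p = 0.989).

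Tbx5 (chr5:119832668-119885219, plus strand), a cardiac and forelimb factor, was at 1.76 to 5.49 CPM in all 5 Prdm6-deficient DA libraries and at 0 to 0.634 CPM in the Prdm6-deficient aorta, with no overlap, as for 1.68% of all genes that were higher in the DA. The log2 fold change between these vessels was 3.39 (95% interval 1.18 to 5.61) and was not called (edgeR adjusted p = 0.172). Control DA ran from 0 to 5.67 CPM and control aorta from 0 to 1.21 CPM (edgeR adjusted p = 0.157), and neither Prdm6 effect was called (edgeR adjusted p = 0.638 in the DA and 0.962 in the aorta). Control DA replicate 1, which had 1792 CPM of cardiomyocyte markers, held the highest Tbx5 among controls. Within Prdm6-deficient DA the order was another: replicates 7 and 2 held the most cardiomyocyte markers, 703 and 336 CPM, and the least Tbx5, 1.91 and 1.76 CPM, while replicates 1 and 6 held 216 and 222 CPM of markers and 5.49 and 5.46 CPM of Tbx5. Summed cardiomyocyte markers ran from 106 to 703 CPM in Prdm6-deficient DA and from 34.8 to 176 CPM in Prdm6-deficient aorta, and their part in the Tbx5 difference was not tested. Hand1 (chr11:57828705-57832818, minus strand), a factor of the left ventricle and of extraembryonic tissue, was at 0 counts in 5 of 7 control DA and 3 of 5 Prdm6-deficient DA libraries. In the aorta it reached 0.193 to 1.72 CPM in controls and 0 to 1.54 CPM in Prdm6-deficient libraries. Fold changes of Hand1 are not written out, since they rest largely on the prior count, but its fitted values are in the plot of fold changes and in the medians over the 10 genes.

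Between the vessels of Prdm6-deficient embryos edgeR called 0 of the 10 genes, against 0.267% of all genes. At an unadjusted p below 0.05 there were 4 (Twist1, Hand2, Tbx5 and Tbx1), and DESeq2 and limma-voom each called 1, Twist1. For the difference of the Prdm6 effect between the vessels edgeR called 0 of 10 against 2.58% of all genes, with 2 at an unadjusted p below 0.05 (Hand2 and Twist1) and 0 by DESeq2 or limma-voom. The comparison of Prdm6-deficient DA with control aorta called 1 gene, Tbx2 (log2 fold change 1.59, edgeR adjusted p = 3.15e-04), where 2.02% of all genes were called.

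Set on a scale of mean CPM per kb of exon, Twist1 was the most abundant member in all 4 groups, at 20.6 per kb in control DA, 32.6 in Prdm6-deficient DA, 22.9 in control aorta and 49.5 in Prdm6-deficient aorta. Tbx2 took the fifth place in both control vessels, at 3.67 and 4.86 per kb, the second place in Prdm6-deficient DA at 14.6 per kb and the third in Prdm6-deficient aorta at 17.5 per kb. Hand2 took the fourth place in control DA at 5.11 per kb and the second in both groups of aorta, at 17.8 and 23.7 per kb. Hand1, Tbx3 and Tbx5 took the lowest 3 places in each group, at 0.752 per kb or less. The order of neighbouring genes within a group was not tested.

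**Figure D5:**
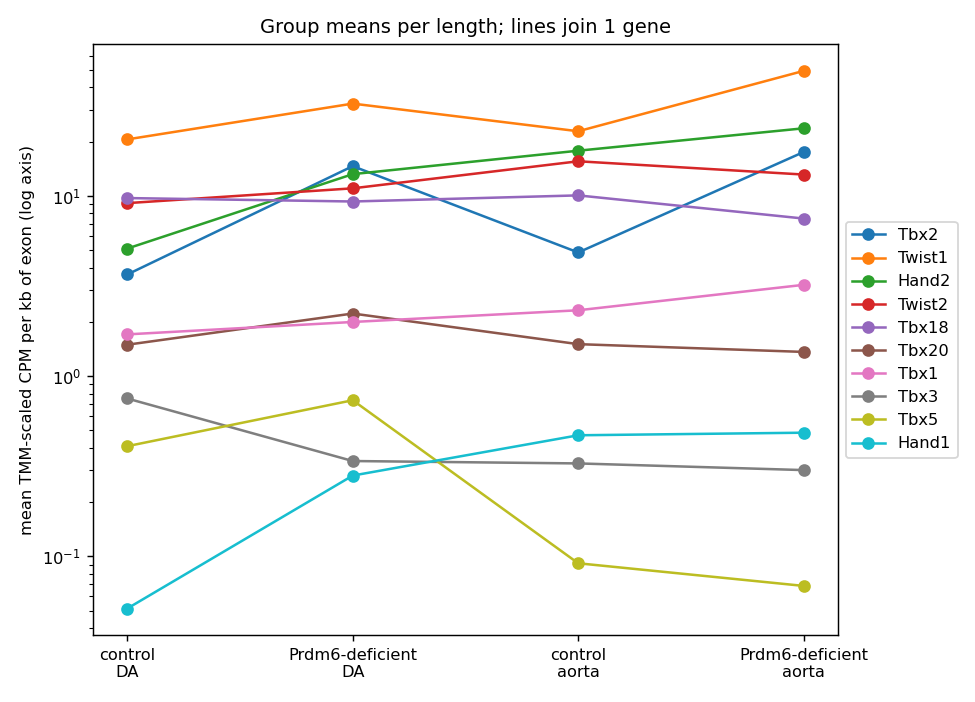
Mean TMM-scaled CPM per kb of exon (y axis, log) of the 10 genes in the 4 groups, with a line for each gene. Twist1 is at the top throughout, from 20.6 to 49.5 per kb, Tbx2 rises past Hand2 in Prdm6-deficient DA, and Hand1, Tbx3 and Tbx5 stay at 0.752 per kb or less.

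The genes whose log2 CPM followed a called member most closely over the 23 libraries were named as a description, since these libraries share genotype and vessel. For Hand2 they were Sash1 (Pearson r = 0.94), Kcnab1 (0.93), a potassium channel subunit, and Ndrg2 (0.92). Kcnab1 had mean levels of 11.8 CPM in control DA, 46.6 in Prdm6-deficient DA, 62.0 in control aorta and 91.3 in Prdm6-deficient aorta, in the same order of groups as Hand2. For Tbx2 they were Chrna2 (0.94), a nicotinic acetylcholine receptor subunit, Nxph1 (0.94) and the transcription factor Ets1 (0.93). Chrna2 had means of 0.375 CPM in control DA and 8.67 in Prdm6-deficient DA, and 0.743 and 11.8 CPM in the aorta. For Twist1 they were Hoxa3 (0.91), Ephx2 (0.90), an epoxide hydrolase, and Zfp36l2 (0.90). Ephx2 had means of 49.3 CPM in control DA and 218 in Prdm6-deficient DA, and 55.3 and 298 CPM in the aorta.

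The genes named from here on come from lists of known partners and pathway members. The E protein genes were not called in the DA, and 2 Id genes were lower. Of 7 E protein and Id genes, 0 were called higher and 2 lower in Prdm6-deficient DA (2.82% of all genes were called lower), and the median log2 fold change of the list was -0.10. The called genes were Id2, with 236 to 376 CPM in control and 178 to 207 CPM in Prdm6-deficient DA (log2 fold change -0.68, edgeR adjusted p = 1.65e-05), and Id4, with 76.9 to 110 CPM and 55.1 to 72.4 CPM (-0.52, edgeR adjusted p = 8.09e-04). Between control vessels 3 of the 7 genes were called higher in the DA, where 5.36% of all genes were called in either direction. On the log2 scale the difference was 1.19 for Id2, 1.0 for Id4 and 0.58 for Id1. None of the 7 was called with Prdm6 deficiency in the aorta, where Id4 had a log2 fold change of 0.47 (edgeR adjusted p = 0.0061). The difference of the effect between vessels was itself called for Id2 (-0.84, edgeR adjusted p = 3.08e-04) and Id4 (-0.99, edgeR adjusted p = 7.86e-05), as for 2.58% of all genes. Tcf3 was at 94.3 to 116 CPM in control DA and 90.01 to 102 CPM in Prdm6-deficient DA (edgeR adjusted p = 0.471). Tcf12 was at 73.5 to 86.5 CPM and 77.8 to 97.5 CPM (edgeR adjusted p = 0.223).

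Of the 11 genes of the endothelin pathway that leads to Hand2 in the pharyngeal arches, 10 were tested. In the DA 2 of these were called higher and 3 lower, with a median of 0.33. The shares over all tested genes were 2.61% called higher and 2.82% called lower. The ligand Edn1 fell, with 42.8 to 91.6 CPM in controls and 25.8 to 40.2 CPM in Prdm6-deficient DA (log2 fold change -1.14, edgeR adjusted p = 3.75e-05). Ece1, the enzyme that makes active endothelin (-0.57, edgeR adjusted p = 0.0028), and the G protein subunit Gnaq (-0.52, edgeR adjusted p = 0.00247) were also lower. The receptor Ednra (0.66, edgeR adjusted p = 0.00107) and the transcription factor Mef2c (0.58, edgeR adjusted p = 2.34e-04) were higher. Edn1 and Ednra thus moved in opposite directions in the DA. None of the 10 was called in the aorta, where Edn1 had a log2 fold change of 0.64 (edgeR adjusted p = 0.0286), and the difference between the vessels was called for Edn1 (-1.78, edgeR adjusted p = 3.44e-05) and Ece1 (-0.84, edgeR adjusted p = 0.00477). In control vessels Edn1, Ece1 and Gnaq were higher in the DA, where Hand2 was lower. The part of the endothelin pathway in the Hand2 level was not tested.

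Of 17 genes of the Bmp pathway, which acts upstream of Hand and Tbx2 genes, 16 were tested. In the DA 0 were called higher and 2 lower (2.82% of all genes were called lower), both of them secreted Bmp antagonists. Grem1 was at 18.8 to 45.6 CPM in control DA and at 0 to 1.36 CPM in Prdm6-deficient DA (log2 fold change -6.15, edgeR adjusted p = 4.73e-07) and Nog at 4.74 to 11.5 CPM and 0.393 to 2.59 CPM (-2.73, edgeR adjusted p = 1.49e-04). In the aorta 2 were called higher and 0 lower, where 1.63% of all genes were called higher. These were Nog (2.42, edgeR adjusted p = 8.80e-04) and the ligand Bmp4 (1.41, edgeR adjusted p = 8.83e-08). Bmp4 was at 86.2 to 130 CPM in controls and 238 to 303 CPM in Prdm6-deficient libraries. Nog thus fell in the DA and rose in the aorta, with an interaction of -5.15 (edgeR adjusted p = 1.18e-05). Tbx2 rose in both vessels, and the part of Bmp signals in its level was not tested. The median log2 fold change of the 16 genes was -0.20 in the DA and 0.40 in the aorta.

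Of 16 mesenchymal genes linked to Twist factors, 5 were called higher and 3 lower in the DA (median 0.08). In the aorta 3 were called higher and 1 lower (median 0.22). Among all tested genes, 2.61% were called higher and 2.82% lower in the DA, and 2.45% were called in the aorta. Those higher in both vessels were the matrix protein gene Postn (log2 fold change 1.38, edgeR adjusted p = 1.38e-06 in the DA, and 1.21, edgeR adjusted p = 3.44e-05 in the aorta), Zeb2 (0.63, edgeR adjusted p = 3.28e-04, and 0.53, edgeR adjusted p = 0.00615) and the cadherin gene Cdh11 (0.50, edgeR adjusted p = 3.71e-05, and 0.52, edgeR adjusted p = 7.86e-05). In the DA Pdgfrb was also higher (0.55, edgeR adjusted p = 5.22e-05). Fgfr2 (-1.78, edgeR adjusted p = 1.34e-08), Prrx2 (-1.21, edgeR adjusted p = 3.50e-05) and the fibronectin gene Fn1 (-0.79, edgeR adjusted p = 2.72e-04) were lower in the DA, and Vim was lower in the aorta (-0.81, edgeR adjusted p = 4.74e-07).

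Of 11 further T-box genes, 2 were tested, Tbx15 and Mga. Tbx15 was at 15.8 to 43.2 CPM in control DA and at 0 to 2.10 CPM in Prdm6-deficient DA (log2 fold change -4.92, edgeR adjusted p = 7.77e-07), the opposite direction to Tbx2. Control DA exceeded control aorta (1.92, edgeR adjusted p = 0.00342), and its effect differed between the vessels (-3.99, edgeR adjusted p = 5.93e-04). Of 18 genes of the Tbx1 network of the pharyngeal arches, 11 were tested, of which Foxc1 was higher (1.07, edgeR adjusted p = 1.34e-08) and Cyp26b1, a retinoic acid hydroxylase, lower (-2.47, edgeR adjusted p = 0.00711) in the DA. In the aorta 2 were called higher and 0 lower, of which Foxc1 is given here (0.55, edgeR adjusted p = 7.57e-04). Of 16 cardiac partner factors, 15 were tested, and in the DA Mef2c and Hey2 (0.55, edgeR adjusted p = 0.0039) were higher and Srf lower (-0.51, edgeR adjusted p = 0.00625), with 0 called in the aorta. Of 16 cardiac target genes of T-box factors, 14 were tested and 1 was called, Gja1, the connexin 43 gene that Tbx2 represses in the heart, which fell in the DA, with 75.0 to 145 CPM in controls and 27.9 to 59.8 CPM in Prdm6-deficient libraries (-1.32, edgeR adjusted p = 3.38e-04). In the aorta Gja1 ran from 77.6 to 193 CPM in controls and from 34.7 to 95.9 CPM in Prdm6-deficient libraries (-0.84, edgeR adjusted p = 0.0395), and 0 of the 14 genes were called. The part of Tbx2 in the Gja1 level was not tested. Over all tested genes, 2.61% were called higher and 2.82% lower in the DA, and 2.45% were called in the aorta.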

How the data were processed

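RNA was measured by RNA-Seq (NEBNext Ultra II) in 23 libraries of 4 groups, taken from the labels. The authors filtered reads by quality with FASTX-Toolkit and removed adapters with tagdust. They aligned the reads to mm10 with STAR and deposited expected counts per gene from RSEM with GENCODE annotation. Tool versions and the use of strand were not given in the sources used here. The deposited counts were rounded. IDs of 54723 of 54752 genes matched GENCODE M21. Genes passing filterByExpr (16463) were scaled by TMM and tested by edgeR's quasi-likelihood test (edgeR 4.0.16, R 4.3.3) in 1 fit over the 23 libraries, with Benjamini-Hochberg adjustment over all tested genes. Standard errors are the log2 fold change over the square root of F. DESeq2 1.42.0, limma-voom (limma 3.58.1) and other settings were alternatives, and the fits were tested on simulated data. Intervals cover 95%. The floor was fixed at 3 counts, which at total counts of 15163974 to 22610547 corresponded to 0.133 to 0.198 CPM. Libraries with the same replicate number were weakly correlated (deviations from the group means, r from -0.0543 to 0.133). Of 3 such pairs between Prdm6-deficient vessels, 3 were the best match (r from 0.0206 to 0.0306) and 1 shared an embryo. Of 6 between control vessels, 0 were the best match and 2 shared an embryo. Some DA and aorta libraries came from the same embryo, which the fit with animals as blocks took up (19 libraries). The members and lists were chosen with earlier results of these data known. Named genes were all 10 members, their neighbours within 10 kb, at most the 4 list genes with the smallest adjusted p in each direction, and the 3 most similar genes of each called member. For 1 gene of the lists the result is not reported here.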

Additional observations from a re-analysis of the deposited data

Results flagged for a closer look

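In 40 groups of member levels tested for a library far from the rest (Dixon's test), 2 were marked, where chance marks about 1 in 20. Hand1 was at 0.607 CPM in control DA replicate 2, the control library with Cre, with a gap to the next library of 0.817 of the range of the group (critical value 0.568). Tbx2 was at 30.2 CPM in Prdm6-deficient DA replicate 7, with a gap of 0.717 of the range (critical value 0.71). The latter library also had 703 CPM of summed cardiomyocyte markers, whose part in the Tbx2 level was not tested.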

How the results depend on the processing

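The count of members called stayed at 3 in the DA and 2 in the aorta in each of 23 fits that left out 1 library, with log2 fold changes in the DA of 1.85 to 2.15 for Tbx2, 1.24 to 1.62 for Hand2 and 0.59 to 0.75 for Twist1. Within the first run of embryo numbers 0 members were called in the DA. Between control vessels 2 members (Hand2 and Twist2) were called with DESeq2, limma-voom, the replicate block, the animal block and within the second run, and 1 to 2 when single libraries were left out (2 without control DA replicate 2 or 4). Twist2 was at -0.76 with DESeq2 (adjusted p = 0.00338) and -0.86 with the replicate block (edgeR adjusted p = 0.0059). The replicate block changed no call in the DA or aorta, with 3 and 2 called. Between Prdm6-deficient vessels 1 member (Twist1) was called with DESeq2, limma-voom and only the compared groups in the fit. For Prdm6-deficient DA against control aorta, 2 members (Tbx2 and Twist1) were called with DESeq2 and without control DA replicates 1 and 7 and Prdm6-deficient DA replicate 7, 0 within the second run, and 1 to 2 when single libraries were left out (2 without Prdm6-deficient DA replicate 7, control aorta replicate 5 or control DA replicate 2). This comparison and the setting without those 3 libraries were chosen after seeing the data. Of 2138 fits of single genes under an alternative, 58 had the other sign, of which 0 were called. The causes were not tested. Hand1 was at 3 counts or fewer in 6 of 7 control DA and 3 of 5 Prdm6-deficient DA libraries.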
